A study of Mus musculus with 15 samples.

Results

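The ribosome biogenesis genes described here were 38 named genes, chosen by symbol from the 17030 genes of a bulk RNA-seq table. The rule uses the symbols alone, but the list was drawn up with earlier results of these data known. They comprised 3 RNA polymerase I subunits, 3 box C/D and 4 box H/ACA snoRNP proteins, 11 small subunit factors, 10 large subunit factors and 7 other nucleolar proteins. All 38 were found and all 38 passed the filter on low values, which kept 11793 genes (FPKM of at least 1 in at least 3 libraries).

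The data were 15 libraries of mouse bone marrow cells, in 5 groups of 3, and the series was set up to compare CAR-treated with control cells. Progenitor cells were wild type and untreated. Hoxb8 macrophages and BMDM (bone marrow-derived macrophages) were also wild type and untreated. CAR macrophages carried the genotype label CAR expression and the treatment label CAR treated, and control-CAR macrophages carried the matching control-CAR labels. A CAR is a chimeric antigen receptor, a synthetic surface receptor. Hoxb8 is a homeobox factor that is used to keep bone marrow progenitors dividing in culture. Every group was labelled as primary bone marrow cells. The labels name no mouse strain or age, no receptor design, vector or promoter, and no number of clones or animals behind a group. The p-values therefore measure the spread between these libraries, which may be technical.

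Ribosomes are built mainly in the nucleolus. RNA polymerase I transcribes a long precursor rRNA there, which small nucleolar ribonucleoproteins (snoRNPs) modify and which a relay of assembly factors folds and cuts into the RNAs of the small and large subunits. Most of these factors are made in proportion to cell growth, and many are textbook targets of the transcription factor MYC, which binds with its partner MAX to the E-box sequence CACGTG. In blood formation, dividing progenitors are known for high ribosome production, and many mature cells make fewer ribosomes.

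Because CACGTG is the site of the MYC and MAX pair, the promoter windows of the members (250 bases before to 50 after the RefSeq start, build GRCm38.p6) were searched for it. CACGTG is its own reverse complement, so a single search covers both strands. RefSeq windows were matched for 33 of the 38 members. Rrs1, Rrp12, Fbl, Bop1 and Npm1 had none in the table. The motif occurred for 6 members, which was 18.2% of those with a window, against 11.6% of the 9535 tested genes with a window. Over windows of this length, it occurred in 16.7% of the members' 36 windows, in 9.76% of the 12153 windows of tested genes and in 7.15% of all 32851 windows. The 6 carriers are shown because the values of the MYC network are given further on, with the motif in capitals. Nop2 (chr6:125131683-125131882, plus strand) and Imp4 (chr1:34439629-34439828, plus strand) held it 60 and 121 bases before the start. Pes1 (chr11:3963965-3963994, plus strand), Utp20 (chr10:88826765-88826789, minus strand), Pno1 (chr11:17211540-17211564, minus strand) and Mybbp1a (chr11:72441355-72441376, plus strand) held it after the start, and only the bases around it are printed. Dkc1 (chrX:75095654-75095853, plus strand) is also shown, picked as the member with the largest change between CAR and control-CAR macrophages. CACGTG does not occur in its window. Whether the motif goes with the changes of the members was not tested.
Nop2: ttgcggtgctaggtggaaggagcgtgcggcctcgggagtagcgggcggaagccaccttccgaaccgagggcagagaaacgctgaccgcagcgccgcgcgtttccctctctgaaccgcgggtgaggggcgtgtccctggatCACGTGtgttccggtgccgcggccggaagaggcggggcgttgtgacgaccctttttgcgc
Imp4: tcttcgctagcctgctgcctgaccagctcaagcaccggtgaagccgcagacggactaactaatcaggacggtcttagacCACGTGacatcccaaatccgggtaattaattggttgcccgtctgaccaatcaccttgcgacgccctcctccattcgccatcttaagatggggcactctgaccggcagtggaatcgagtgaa
Pes1: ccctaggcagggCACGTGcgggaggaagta
Utp20: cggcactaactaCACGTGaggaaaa
Pno1: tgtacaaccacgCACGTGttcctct
Mybbp1a: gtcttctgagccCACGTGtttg
Dkc1: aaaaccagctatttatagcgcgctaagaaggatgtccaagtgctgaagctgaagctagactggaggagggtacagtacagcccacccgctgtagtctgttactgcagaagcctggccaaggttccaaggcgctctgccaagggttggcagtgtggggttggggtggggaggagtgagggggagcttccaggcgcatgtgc

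Several members also house snoRNAs, the guides of rRNA modification, within their own gene bodies. In the GENCODE M21 annotation, 6 of the 38 members (15.8%) held at least 1 snoRNA on their own strand, against 196 of 11492 tested genes (1.71%). The 6 were Nop56 with 5 snoRNAs (Snord57 and Snord110 among them), Nop58 with 4 (Snord11 and Snord70), Ncl with 3 (Snora75 and Snord82), Gnl3 with 3 (Snord19 and Snord69), Ppan with 2 and Dkc1 with 1. The snoRNAs were annotated inside these genes; their own levels were not analysed here. Exons of 15 members were overlapped by a gene on the opposite strand, among them Dkc1 by Mpp1, Nop56 by Idh3b, Gnl3 by Pbrm1, Rrp9 by Parp3, Nhp2 by Rmnd5b, Noc2l by Samd11 and Pno1 by Wdr92. Whether strand was used in the counting was not stated, so reads of these pairs may not be told apart. Npm1 also has many processed pseudogene copies, whose reads may be shared with it.

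Total estimated counts per library ran from 16962834 to 19221685. The labelled cell types were checked against marker genes. Adgre1, the F4/80 antigen of macrophages, had a mean of 0.49 FPKM (a level scaled by transcript length and sequencing depth) in progenitor cells and 811.4 to 1213 FPKM in the 4 macrophage groups. Kit, a receptor of progenitors, had a mean of 113.4 FPKM in progenitor cells and 3.73 to 4.71 FPKM in the others. The 10 progenitor markers summed to 2941 to 2998 FPKM in progenitor cells, 167.5 to 182.5 FPKM in CAR macrophages, 179.2 to 308.3 FPKM in BMDM and 21.5 to 25.01 FPKM in Hoxb8 and control-CAR macrophages. The complement gene C1qa, a common macrophage marker, was listed at 0 in all Hoxb8 and control-CAR libraries. The CAR libraries stood apart from the other macrophages in other lists. Their 12 macrophage markers summed to 5583 to 5740 FPKM, against 12020 to 13920 FPKM in the BMDM, Hoxb8 and control-CAR libraries. Their 9 mast cell and basophil markers summed to 3808 to 4044 FPKM, against 434.9 to 529.1 FPKM in those libraries and 1639 to 1760 FPKM in progenitor cells. None of the 9 was at 0 in all 3 libraries of CAR macrophages, BMDM or control-CAR macrophages. The 8 fibroblast markers summed to 51.9 to 53.3 FPKM in CAR libraries, against 15.95 to 23.5 FPKM in the BMDM, Hoxb8 and control-CAR libraries. Col1a2 and Sparc carried that sum over BMDM, while Col1a1, Dcn and Lum were lower in CAR macrophages than in BMDM. The part of these marker differences in the results that follow was not tested. In bulk RNA, fewer cells of a type and less RNA per cell cannot be told apart.

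By deposited FPKM, all 38 genes had their highest mean level in progenitor cells. For all 38, the 3 progenitor libraries lay above the other 12, which held for 49.0% of all tested genes. This order depends on how the libraries are scaled. In the modelled comparison of CAR macrophages with progenitor cells below, 6 of the 38 were not called, and the log2 change of Nop14 was 0.05. CAR macrophages came second for 37 of the 38, and for 37 all 3 CAR libraries lay above the 9 libraries of BMDM, Hoxb8 and control-CAR macrophages, against 40.8% of all tested genes. The exception was Ddx10. The lowest mean was in Hoxb8 macrophages for 29 genes, in control-CAR macrophages for 5 and in BMDM for 4. Of these 3 lowest groups, Hoxb8 and control-CAR macrophages had 37 of the 38 genes not called between them. Few of all tested genes were called there either, 0.721% higher in control-CAR macrophages and 1.9% lower. At an unadjusted p under 0.05 by edgeR's quasi-likelihood test, 14 of the 38 were higher in control-CAR macrophages and 1 lower. The shares of all tested genes were 8.29% and 9.75%. Against BMDM, 19 genes were called lower in Hoxb8 macrophages, 4 higher and 15 were not called. Of all tested genes, 38.3% were called lower in that comparison and 32% higher.

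**Figure D1:**
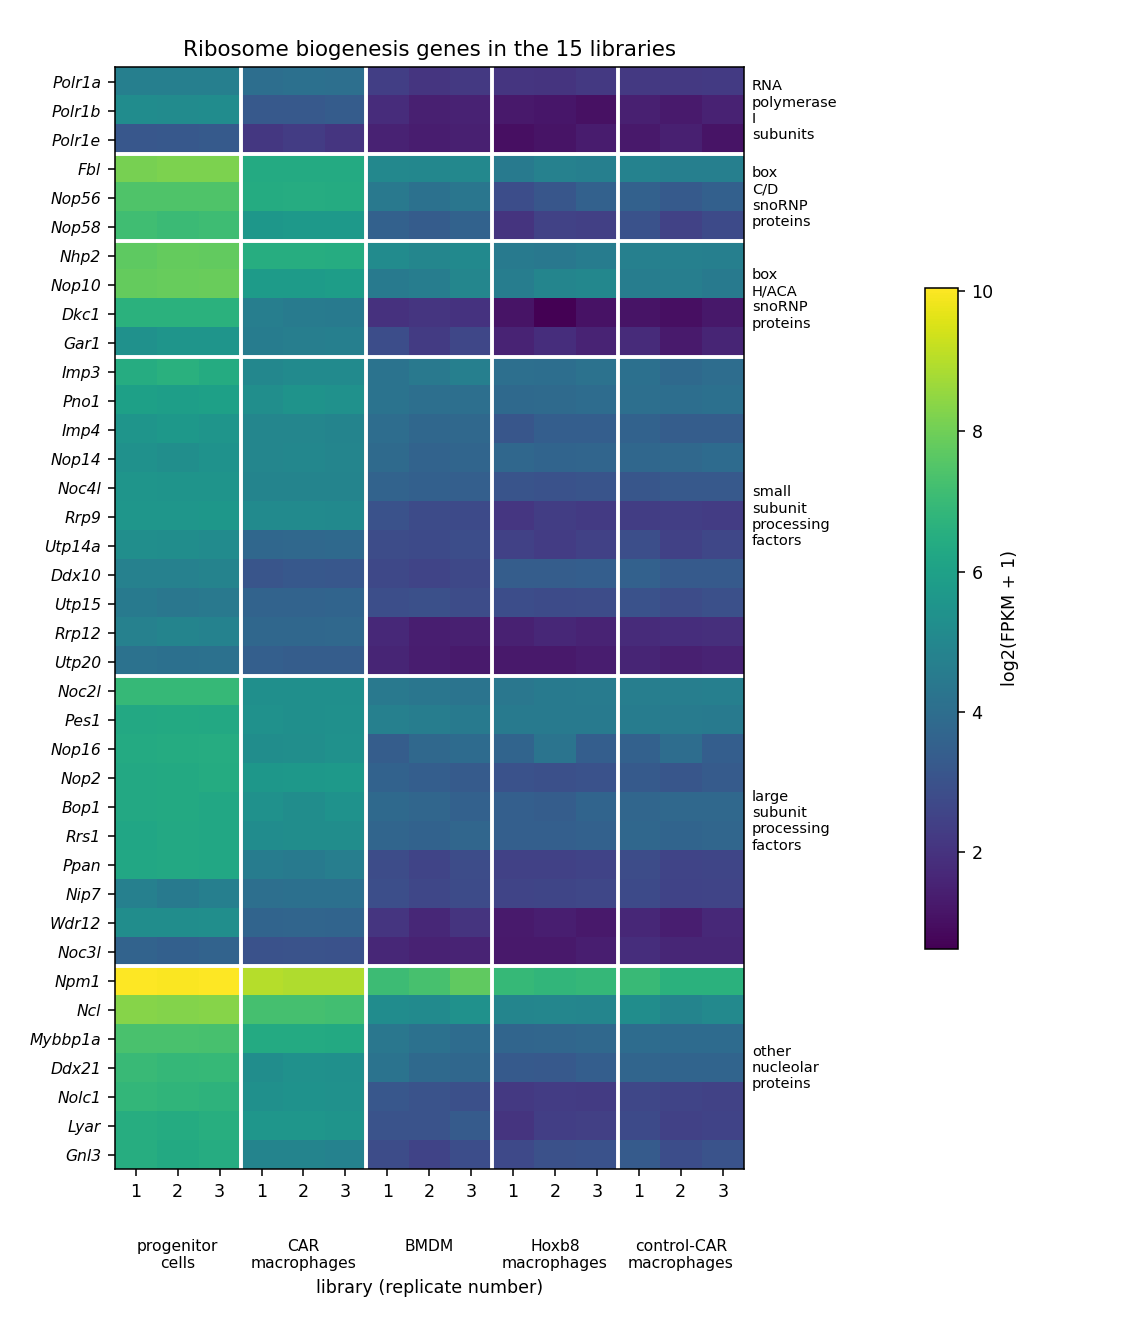
Level of each of the 38 ribosome biogenesis genes in each of the 15 libraries, as log2(FPKM + 1) by colour, with genes in rows by role and libraries in columns by group. The progenitor libraries hold the highest value in all 38 rows and the CAR libraries the next in 37.

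The summed share of each library's counts gives the same order. The 38 genes took 0.886%, 0.871% and 0.879% of the counts in the 3 progenitor libraries and 0.392%, 0.393% and 0.387% in the CAR libraries. They took 0.118%, 0.109% and 0.121% in BMDM, 0.0869%, 0.0902% and 0.0925% in Hoxb8 macrophages, and 0.106%, 0.0929% and 0.0965% in control-CAR macrophages. The mean share in CAR macrophages (0.391% ± 0.00315, SD, n = 3) was 3.96 times that in control-CAR macrophages (0.0986% ± 0.00691, SD, n = 3). The mean share in progenitor cells was 2.25 times that in CAR macrophages and 7.59 times that in BMDM. No library of one of these pairs of groups reached the range of the other. Shares of Hoxb8 and control-CAR macrophages overlapped, and the highest control-CAR library also lay close to the lowest BMDM library. With 3 libraries against 3, an exact permutation test cannot go below 0.10, so no test was made of the shares. Without Ncl and Npm1, the most abundant pair, the shares were 0.577% in progenitor cells, 0.25% in CAR macrophages, 0.0755% in BMDM, 0.06% in Hoxb8 and 0.0681% in control-CAR macrophages.

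**Figure D2:**
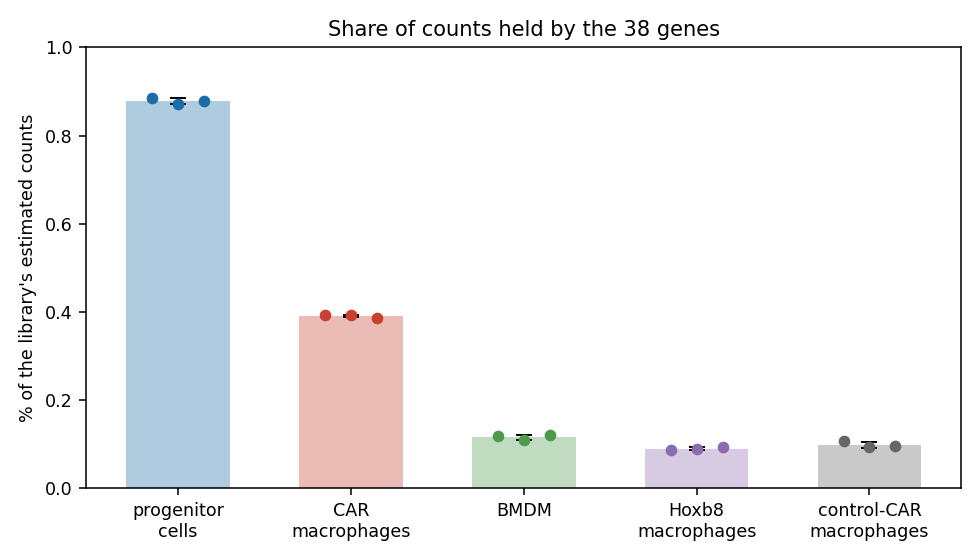
Percent of each library's estimated counts held by the 38 genes, with a bar from 0 for the mean of 3 libraries, an SD error bar and a point per library. Progenitor libraries sit near 0.879%, CAR libraries near 0.391% and the other 9 libraries between 0.0869% and 0.121%.

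The comparison that the series was built on set CAR against control-CAR macrophages. Of the 38 genes, 37 were higher in CAR macrophages and 1, Ddx10, was lower, by edgeR's quasi-likelihood test at a Benjamini-Hochberg adjusted p under 0.05. Of all tested genes, 41.9% were called higher and 36.8% lower. Over the 38 genes the median log2 change was 1.49 (2.80-fold), against 0.06 over all tested genes, and 29 of the 38 were at least 2-fold higher. FPKM ranges of the groups did not overlap for any of the 38. Of all tested genes, 57.4% did not overlap with the CAR libraries higher and 24.7% with them lower. Among other measures that differed between these groups, 20 of 20 S phase genes and 20 of 20 G2 and M phase genes were higher in CAR macrophages, with median log2 changes of 3.43 and 4.36. All 9 mast cell and basophil markers were higher, 8 of 12 macrophage markers were lower and 1 higher, and 4 of 6 tested fibroblast markers were higher and 1 lower. Of 10 progenitor markers, 5 were higher (Ctsg, Cd34, Mpo, Myb and Gfi1), 1 lower (Cebpe) and 4 not called, with a median log2 change of 0.89. The part of these in the members' change was not tested.

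By role, the size of the change varied, with a median log2 change of 2.76 for the box C/D proteins, 2.39 for the box H/ACA proteins, 1.92 for the other nucleolar proteins and 1.85 for the RNA polymerase I subunits. Lower medians were found for the large subunit factors, at 1.35, and the small subunit factors, at 1.05. The ranges of the roles overlapped, and differences between roles were not tested.

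**Figure D3:**
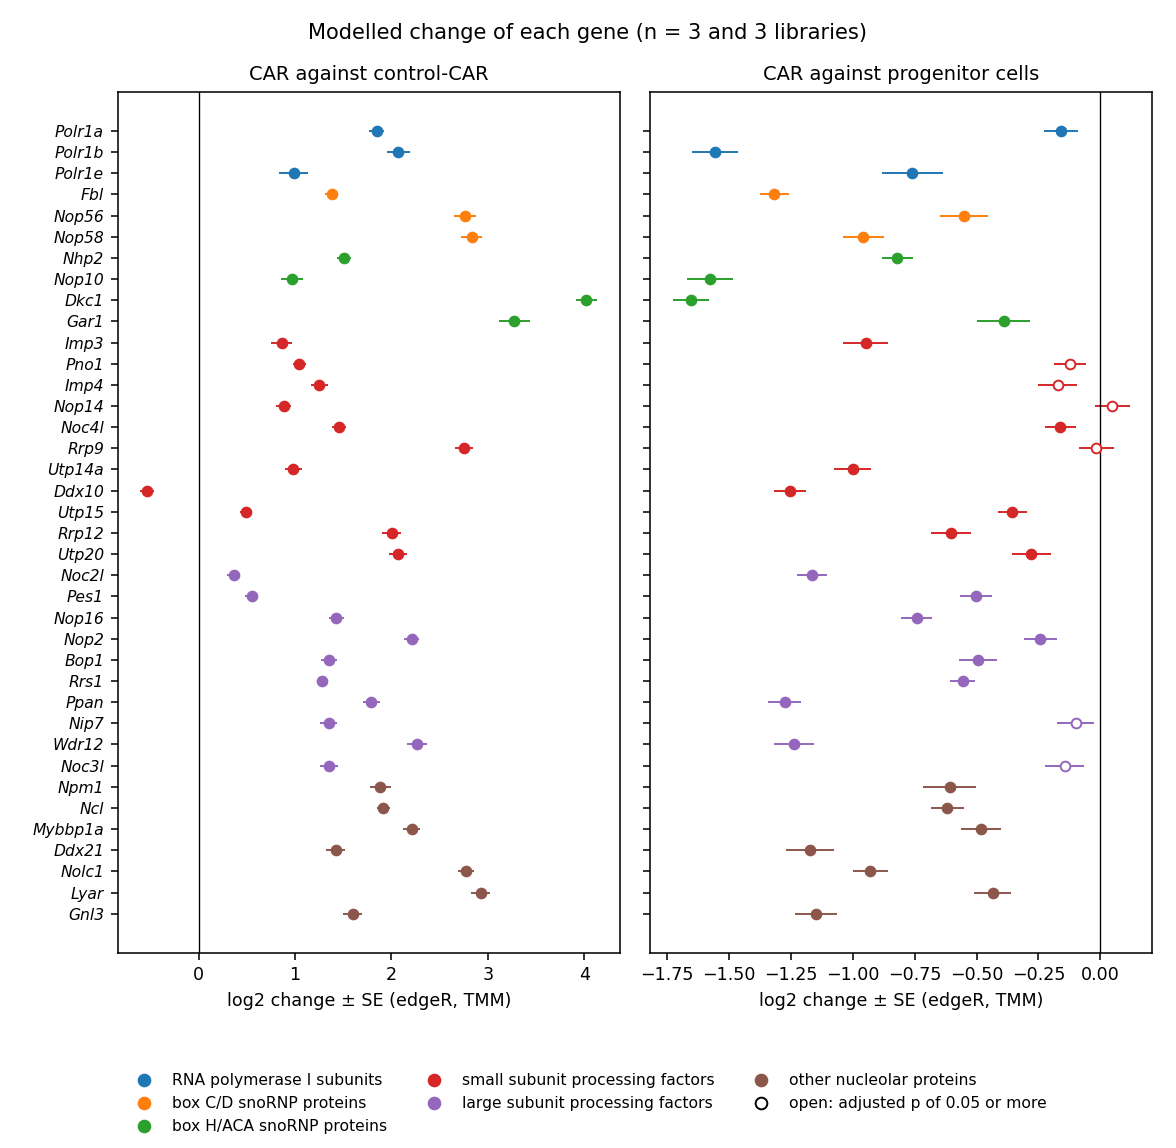
Modelled log2 change of each of the 38 genes, with its standard error from the edgeR fit, in CAR macrophages against control-CAR macrophages (left) and against progenitor cells (right), coloured by role. Open points were not called. In CAR against control-CAR macrophages 37 points lie above 0 and Ddx10 lies below, while in CAR macrophages against progenitor cells the points run from -1.66 to 0.05.

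RNA polymerase I transcribes the rRNA precursor. Polr1a, its largest subunit (chr6:71909053-71979435), stood at 24.8, 25.1 and 24.6 FPKM in progenitor cells and 15.3, 16.3 and 15.8 FPKM in CAR macrophages. It stood at 4.13, 3.26 and 3.52 FPKM in BMDM, 3.25, 3.11 and 3.51 FPKM in Hoxb8 macrophages, and 3.61, 3.56 and 3.69 FPKM in control-CAR macrophages. The CAR libraries lay between the progenitor libraries and the other 9, among which BMDM overlapped both Hoxb8 and control-CAR libraries. Polr1a rose by a log2 change of 1.85 (SE 0.08) in CAR over control-CAR macrophages. Polr1b, the second-largest subunit, rose by 2.07 (SE 0.12), from 1.69 to 8.77 mean FPKM, and stood at 35.9 FPKM in progenitor cells. Polr1e, a smaller subunit, rose by 0.99 (SE 0.15), from 1.45 to 3.54 mean FPKM.

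Box C/D snoRNPs methylate rRNA on the ribose. Their methyltransferase fibrillarin, encoded by Fbl (chr7:28168893-28179269), stood at 275.1, 293.0 and 291.0 FPKM in progenitor cells and 83.2, 82.1 and 81.8 FPKM in CAR macrophages. It stood at 31.8, 30.6 and 31.2 FPKM in BMDM, 22.0, 26.0 and 24.6 FPKM in Hoxb8 macrophages, and 27.2, 24.7 and 25.1 FPKM in control-CAR macrophages. Progenitor and CAR libraries lay apart from each other and from the rest, BMDM lay above both Hoxb8 and control-CAR libraries, and the last groups overlapped. Fbl rose by a log2 change of 1.38 (SE 0.07) in CAR over control-CAR macrophages. Its scaffold partners rose more in the fit, Nop56 by 2.76 (SE 0.12, from 9.93 to 85.2 mean FPKM) and Nop58 by 2.83 (SE 0.11, from 5.78 to 50.5 mean FPKM).

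Box H/ACA snoRNPs convert uridine to pseudouridine in rRNA, and share their core proteins with telomerase. Dkc1 encodes dyskerin, the pseudouridine synthase (gene ID 245474, chrX:75095854-75109776), and its promoter window is printed above. Its level was 99.6, 97.7 and 97.9 FPKM in progenitor cells, 24.4, 22.3 and 21.3 FPKM in CAR macrophages, and 2.95, 3.23 and 3.01 FPKM in BMDM. In Hoxb8 macrophages it was 1.18, 0.54 and 1.10 FPKM, and in control-CAR macrophages 1.15, 0.99 and 1.34 FPKM. The groups formed steps without overlap except for the last pair, which overlapped. The control-CAR values rested on 42 to 49 estimated counts per library, and the lowest Hoxb8 library on 25, so their precision is limited by counting. The log2 change of 4.02 (SE 0.11) in CAR over control-CAR macrophages was the largest of the 38 (adjusted p = 4.33e-16, edgeR's quasi-likelihood test).

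Nhp2, another core protein of these particles (chr11:51619773-51623718), stood at 209.9, 224.7 and 221.1 FPKM in progenitor cells and 90.3, 88.3 and 86.5 FPKM in CAR macrophages. It stood at 35.3, 29.5 and 33.6 FPKM in BMDM, 21.4, 20.3 and 23.0 FPKM in Hoxb8 macrophages, and 25.7, 25.3 and 24.5 FPKM in control-CAR macrophages. No pair of these groups overlapped. The log2 change of Nhp2 in CAR over control-CAR macrophages was 1.51 (SE 0.07). Gar1, a further core protein, rose by 3.28 (SE 0.16), from 2.01 to 23.9 mean FPKM, with 26 to 40 estimated counts per control-CAR library. Nop10, the smallest of the core proteins, rose by 0.97, from 23.0 to 55.2 mean FPKM.

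The 11 small subunit factors act in or after the small subunit processome, the particle that makes the first cuts toward the small subunit rRNA. Imp3 (chr9:56937500-56938398), which helps pair the U3 snoRNA with the precursor, stood at 86.1, 97.0 and 83.7 FPKM in progenitor cells and 30.5, 34.4 and 34.0 FPKM in CAR macrophages. It stood at 17.6, 20.4 and 24.9 FPKM in BMDM, 15.8, 15.3 and 17.1 FPKM in Hoxb8 macrophages, and 16.3, 13.3 and 14.8 FPKM in control-CAR macrophages. BMDM lay above both Hoxb8 and control-CAR libraries, and those groups overlapped. Pno1, an assembly factor of the late small subunit precursor (chr11:17203198-17211589), stood at 62.9, 58.3 and 62.9 FPKM in progenitor cells and 37.6, 42.9 and 40.4 FPKM in CAR macrophages. It stood at 17.4, 15.9 and 15.7 FPKM in BMDM, 13.5, 13.7 and 14.4 FPKM in Hoxb8 macrophages, and 15.7, 15.4 and 16.4 FPKM in control-CAR macrophages. Pno1 in Hoxb8 libraries lay below all others, and the BMDM and control-CAR libraries overlapped. In CAR over control-CAR macrophages, Imp3 rose by 0.86 (SE 0.11) and Pno1 by 1.05 (SE 0.07) on the log2 scale.

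Rrp12 (chr19:41859483-41896153), a factor in the maturation and export of ribosome precursors, stood at 26.3, 28.1 and 26.6 FPKM in progenitor cells and 12.5, 12.8 and 13.1 FPKM in CAR macrophages. It stood at 2.23, 1.64 and 1.71 FPKM in BMDM, 1.78, 2.17 and 1.94 FPKM in Hoxb8 macrophages, and 2.42, 2.60 and 2.73 FPKM in control-CAR macrophages. The BMDM and Hoxb8 libraries overlapped and the control-CAR libraries lay above both. Rrp12 rose by 2.0 in CAR over control-CAR macrophages on the log2 scale. Rrp9, a protein of the U3 snoRNP, had the largest rise of the role at 2.75 (SE 0.09), from 4.04 to 33.6 mean FPKM. The rises of Utp15, Nop14, Utp14a, Imp4, Noc4l and Utp20 ran from 0.49 for Utp15 to 2.07 for Utp20.

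Ddx10, a DEAD-box RNA helicase of this role (gene ID 77591, chr9:53098454-53248170), did not follow the other 37. It stood at 26.5, 26.1 and 27.8 FPKM in progenitor cells, 7.67, 8.37 and 8.02 FPKM in CAR macrophages, and 5.27, 4.88 and 5.27 FPKM in BMDM. In Hoxb8 macrophages it stood at 9.44, 9.68 and 9.95 FPKM, and in control-CAR macrophages at 10.6, 8.87 and 8.81 FPKM. The CAR libraries lay below all Hoxb8 and control-CAR libraries and above all BMDM libraries. Its log2 change in CAR over control-CAR macrophages was -0.53 (SE 0.07, adjusted p = 9.02e-07, edgeR's quasi-likelihood test). On TPM values the change was 0.01 and not called, so the fall of Ddx10 depended on the scaling.

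The large subunit factors include the PeBoW complex of Pes1, Bop1 and Wdr12. Noc2l (chr4:156234655-156247616), which escorts the large subunit precursor out of the nucleolus, stood at 122.4, 121.8 and 122.9 FPKM in progenitor cells and 39.3, 38.7 and 39.1 FPKM in CAR macrophages. It stood at 20.4, 19.04 and 18.2 FPKM in BMDM, 19.4, 20.97 and 22.4 FPKM in Hoxb8 macrophages, and 24.2, 24.3 and 24.98 FPKM in control-CAR macrophages. BMDM and Hoxb8 libraries overlapped, and the control-CAR libraries lay above both. Pes1 (chr11:3963975-3980004) stood at 77.6, 81.3 and 78.8 FPKM in progenitor cells and 40.7, 39.1 and 40.1 FPKM in CAR macrophages. It stood at 25.2, 23.7 and 21.1 FPKM in BMDM, 21.2, 21.2 and 21.6 FPKM in Hoxb8 macrophages, and 22.7, 22.2 and 21.3 FPKM in control-CAR macrophages. The last 3 groups overlapped for Pes1. The log2 changes in CAR over control-CAR macrophages, 0.36 (SE 0.06) for Noc2l and 0.55 (SE 0.07) for Pes1, were the smallest of the role. Wdr12 rose by 2.27 (SE 0.11) and Nop2, an rRNA cytosine methyltransferase, by 2.21 (SE 0.08). Bop1, Rrs1, Noc3l, Nip7, Nop16 and Ppan rose by 1.28 (Rrs1) to 1.79 (Ppan).

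The other nucleolar proteins include the most abundant members. Npm1 encodes nucleophosmin, a chaperone of the granular nucleolus (chr11:33152498-33164142), and stood at 1054, 1025 and 1056 FPKM in progenitor cells and 504.8, 478.7 and 487.6 FPKM in CAR macrophages. It stood at 134.9, 158.5 and 213.9 FPKM in BMDM, 120.1, 112.5 and 117.0 FPKM in Hoxb8 macrophages, and 129.4, 97.7 and 97.6 FPKM in control-CAR macrophages. BMDM lay above the last pair of groups, which overlapped. Ncl encodes nucleolin, an RNA-binding nucleolar protein (chr1:86344719-86359455), and stood at 325.9, 311.2 and 318.7 FPKM in progenitor cells and 151.4, 151.8 and 145.8 FPKM in CAR macrophages. It stood at 36.0, 34.2 and 40.8 FPKM in BMDM, 28.9, 30.2 and 29.2 FPKM in Hoxb8 macrophages, and 37.1, 28.6 and 31.9 FPKM in control-CAR macrophages. The control-CAR libraries overlapped both other groups for Ncl. The log2 changes in CAR over control-CAR macrophages were 1.89 (SE 0.11) for Npm1 and 1.92 (SE 0.07) for Ncl. Nolc1, a chaperone of snoRNPs, rose by 2.77 (SE 0.08), and Lyar by 2.93 (SE 0.10), from 4.94 to 46.1 mean FPKM. Ddx21, an RNA helicase, Gnl3 (nucleostemin) and Mybbp1a rose by 1.42, 1.60 and 2.21.

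CAR macrophages nevertheless stayed below progenitor cells. In that comparison 32 of the 38 genes were lower in CAR macrophages, 0 were higher and 6 were not called, by edgeR's quasi-likelihood test. At an unadjusted p under 0.05, 33 were lower and 0 higher, and DESeq2 called 34 lower and 0 higher. Of all tested genes, 39.7% were called lower and 45.9% higher. The median log2 change of the 38 was -0.61, against 0.07 over all tested genes, with Dkc1 lowest at -1.66 (SE 0.07), and 11 of the 38 were at least 2-fold lower. The 6 not called were Imp4 at -0.17, Noc3l at -0.14, Pno1 at -0.12, Nip7 at -0.10, Rrp9 at -0.02 and Nop14 at 0.05, with adjusted p of 0.0521, 0.0987, 0.0884, 0.227, 0.836 and 0.521. The calls of Polr1a and Noc4l, at -0.16 each, were lost without CAR replicate 1, that of Polr1a also without replicate 3 and that of Noc4l without replicate 2. Of the 6 not called, 4 were small subunit and 2 large subunit factors. This count depended on the scaling: with library totals, all 38 were called lower, the median of the 38 was -1.09 and that of all tested genes -0.40. The deposited FPKM values of all 38 lay lower in CAR macrophages without overlap, as did those of 57.2% of all tested genes. CAR and progenitor libraries differed in the same lists of cell cycle genes, with 20 of 20 S phase genes and 19 of 20 G2 and M phase genes lower in CAR macrophages.

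As a percent of the progenitor FPKM, the CAR level had a median of 47.2% over the 38 genes, from 23.0% for Dkc1 to 73.9% for Nop14, against a median of 71.3% over all tested genes. By role, the median was 58.9% for small subunit factors, 49.5% for large subunit factors, 46.9% for other nucleolar proteins, 42.2% for RNA polymerase I, 36.8% for box C/D and 32.2% for box H/ACA proteins. The same median over the 38 was 13.8% in BMDM, 11% in control-CAR and 10.5% in Hoxb8 macrophages, where all tested genes had medians of 63.7%, 59.2% and 57.5%. In Hoxb8 macrophages the medians by role were 4.75% for box C/D, 7.4% for box H/ACA, 7.48% for other nucleolar proteins, 13.2% for RNA polymerase I, 13.7% for large subunit factors and 18.1% for small subunit factors. In BMDM they were 10.8%, 11.2%, 10.7%, 14.6%, 15.4% and 23.6%, in the same order of roles. These percentages share the progenitor libraries.

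CAR macrophages were also set against BMDM. All 38 genes were higher in CAR macrophages by edgeR's quasi-likelihood test, where 39.2% of all tested genes were called higher and 37.8% lower. DESeq2 called the same number. Their median log2 change was 1.52, against 0.02 over all tested genes. The largest was 2.60 (SE 0.10) for Rrp12 and the smallest 0.46 for Imp3 (SE 0.10) and Ddx10 (SE 0.07). Side by side, with the CAR libraries shared, the change over BMDM and over control-CAR macrophages was 2.57 and 4.02 for Dkc1, 2.05 and 3.28 for Gar1, 1.98 and 1.85 for Polr1a, and 0.46 and -0.53 for Ddx10. S phase genes were higher in CAR macrophages than BMDM for 18 of 20, with a median log2 change of 0.87. G2 and M phase genes were higher for 13 of 20 and lower for 4, with a median of 0.46.

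All 38 genes were lower in either kind of untreated macrophage than in progenitor cells. In Hoxb8 macrophages, this held for all 38 by edgeR's quasi-likelihood test, where 39.6% of all tested genes were called lower and 44.7% higher. The median log2 change was -2.42, and 35 of the 38 were at least 2-fold lower. Dkc1 fell by 5.91 (SE 0.11) on the log2 scale, and Ddx10 by 0.63 (SE 0.06), the smallest fall. In BMDM all 38 were lower than in progenitor cells, where 40.7% of all tested genes were called lower and 46.6% higher. Here the median log2 change was -2.26, and all 38 were at least 2-fold lower, from Dkc1 at -4.22 (SE 0.09) to Utp15 at -1.02 (SE 0.06). All tested genes had median changes of 0.06 and 0.10 in these comparisons, which share the progenitor libraries. All 20 S phase and all 20 G2 and M phase genes were lower in both.

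Hoxb8 macrophages and BMDM differed from each other less evenly. Of the 38 genes, 19 were lower in Hoxb8 macrophages, 4 were higher and 15 were not called, by edgeR's quasi-likelihood test. Of all tested genes, 38.3% were called lower and 32% higher, so the share of members called higher was below the background and the share called lower above it. The median log2 change was -0.23, against -0.05 over all tested genes. Dkc1 was lowest at -1.68 (SE 0.14), followed by Nop58 at -1.21, Gar1 at -1.05 and Nop56 at -0.98, all snoRNP proteins. All 3 box C/D proteins and 3 of 4 box H/ACA proteins were lower. The 4 higher were Ddx10 at 1.08 (SE 0.07), Gnl3 at 0.35, Nop10 at 0.30 and Noc2l at 0.29. With library totals, only Ddx10 was called higher and 28 were lower, against 22.3% and 49.7% of all tested genes. The call of Gnl3 was lost without BMDM replicate 2 or Hoxb8 replicate 2 or 3, and that of Nop10 without BMDM replicate 1 or 2 or Hoxb8 replicate 2 or 3. The call of Fbl as lower was lost without replicate 1 of either group, that of Utp14a without Hoxb8 replicate 2, and that of Ncl without any 1 library other than BMDM replicate 2.

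The cell cycle lists moved far more than the members in this comparison. Summed over 20 genes, the G2 and M phase list stood at 303.3 to 377.5 FPKM in BMDM and 25.2 to 34.0 FPKM in Hoxb8 macrophages. All 20 were lower in Hoxb8 macrophages, with a median log2 change of -4.04, and 18 of 20 S phase genes were lower, with a median of -2.23. The summed S phase level was 321.9 to 337.6 FPKM in BMDM and 172.7 to 211.7 FPKM in Hoxb8 macrophages. It was 687.9 to 696.3 FPKM in CAR macrophages and 2517 to 2536 FPKM in progenitor cells.

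Few differences were called between control-CAR and Hoxb8 macrophages. Of the 38 genes, 1 was higher in control-CAR macrophages, 0 were lower and 37 were not called, by edgeR's quasi-likelihood test. Of all tested genes, 0.721% were called higher and 1.9% lower. At an unadjusted p under 0.05, 14 of the 38 were higher and 1, Nop10 at -0.34, was lower, against 8.29% and 9.75% of all tested genes. DESeq2 called 2 of the 38 higher and 0 lower, against 1.19% and 3.08% of all tested genes. The gene was Noc3l, a large subunit factor (chr19:38788121-38820310). It stood at 11.4, 10.3 and 11.2 FPKM in progenitor cells, 7.08, 7.23 and 6.95 FPKM in CAR macrophages, and 2.20, 1.85 and 1.92 FPKM in BMDM. In Hoxb8 macrophages it stood at 1.4, 1.42 and 1.67 FPKM, and in control-CAR macrophages at 2.58, 2.07 and 2.10 FPKM. All 3 control-CAR libraries lay above the Hoxb8 libraries, and they overlapped BMDM. The log2 change was 0.54 (SE 0.11, adjusted p = 0.0132, edgeR's quasi-likelihood test), and the call was lost without control-CAR replicate 1 (adjusted p = 0.0542) or without Hoxb8 replicate 1 (0.0769) or 2 (0.0626). The median log2 change of the 38 was 0.17, against 0.00 over all tested genes, and 18 of the 38 did not overlap in FPKM, where 15.1% of all tested genes did not overlap with control-CAR libraries higher and 6.82% with them lower.

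The ratios between partners in a complex moved to different extents across the groups. Ratios of FPKM within a library do not depend on how libraries are scaled to each other. The ratio of Nhp2 to Dkc1 was 2.22 ± 0.102 (SD, n = 3) in progenitor cells and 3.91 ± 0.187 in CAR macrophages. It was 10.8 ± 1.45 in BMDM, 22.1 ± 3.65 in control-CAR and 25.5 ± 10.5 in Hoxb8 macrophages. The groups did not overlap from progenitor cells to BMDM, and the last pair overlapped. The ratio of Nop10 to Dkc1 was 2.34 ± 0.0911 in progenitor cells and 2.45 ± 0.214 in CAR macrophages, which overlapped, against 20.3 ± 4.52 in control-CAR macrophages. The wide spread in Hoxb8 macrophages (33.9 ± 18.2) came with the Dkc1 value of 0.54 FPKM in 1 library.

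In the PeBoW complex, the ratio of Pes1 to Wdr12 was 2.13 ± 0.0667 in progenitor cells, 3.44 ± 0.12 in CAR macrophages and 11.02 in control-CAR macrophages. In the box C/D particle, the ratio of Fbl to Nop58 was lower in CAR macrophages (1.63 ± 0.0866) than in progenitor cells (2.09 ± 0.137), and stood at 4.54 in control-CAR and 6.13 in Hoxb8 macrophages. The ratio of Polr1a to Polr1b was 0.692 in progenitor cells, 1.80 in CAR macrophages, 1.79 in BMDM and 2.16 in control-CAR macrophages. The ratio of Bop1 to Wdr12 was 2.12 in progenitor cells, 3.45 in CAR, 6.35 in control-CAR and 6.98 in Hoxb8 macrophages. That of Gar1 to Dkc1 was 0.4455, 1.06, 1.73 and 2.74 in the same order of groups. Both genes of that ratio rested on few counts in control-CAR and Hoxb8 macrophages. The remaining pairs moved less. The ratio of Nop56 to Nop58 was 1.27 in progenitor cells and 1.69, 1.81, 2.06 and 1.75 in CAR, BMDM, Hoxb8 and control-CAR macrophages, where all pairs of the 4 groups overlapped. The ratio of Nop14 to Noc4l ran from 0.912 in progenitor cells to 1.66 in Hoxb8 macrophages, and that of Imp3 to Imp4 from 1.11 in CAR macrophages to 1.902 in progenitor cells. A ratio that moved shows unequal change of the partners, and with 3 libraries a group the ratios were not tested.

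**Figure D4:**
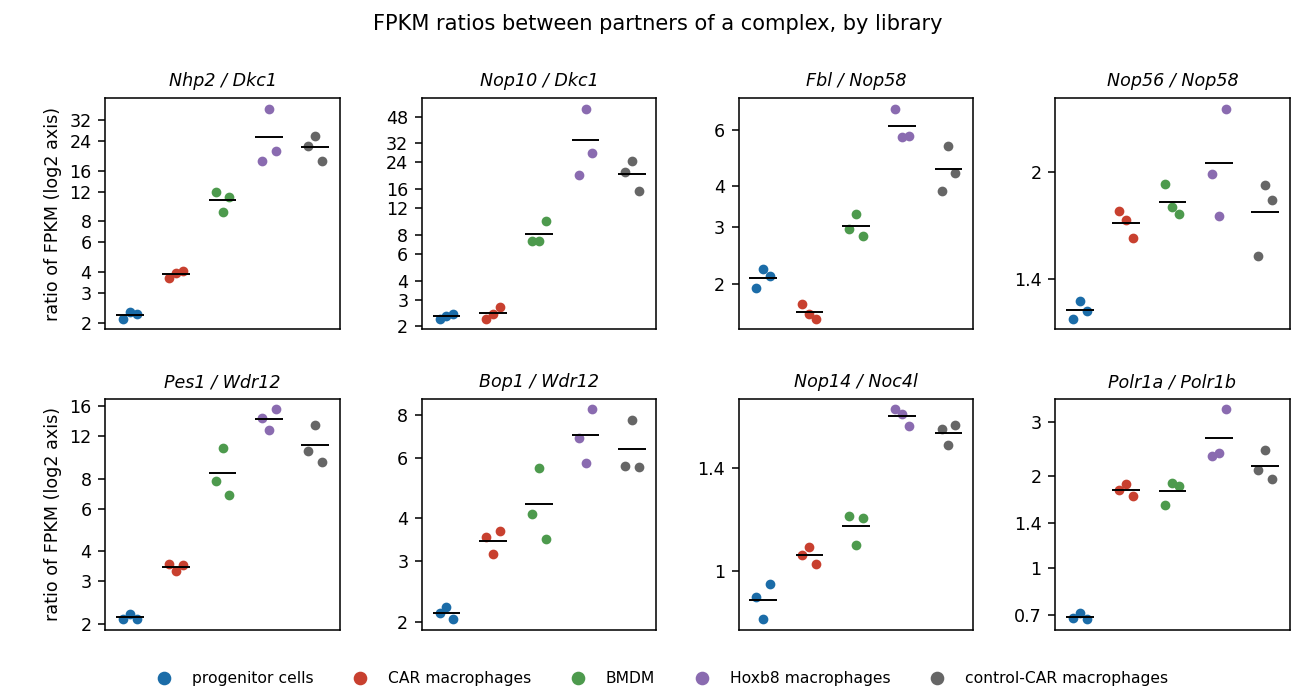
Ratio of FPKM between partners of a complex in each library, on a log2 axis, with a point per library and a line at the mean of each group. The ratio of Nhp2 to Dkc1 runs from 2.22 in progenitor cells through 3.91 in CAR macrophages to 22.1 in control-CAR macrophages.

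The rest of the pathway, taken from lists of further genes, was also mostly higher in CAR than in control-CAR macrophages, where 41.9% of all tested genes were called higher and 36.8% lower. Of 39 other small subunit factors, 36 were higher, 2 lower and 1 not called, with a median log2 change of 0.88. The largest were Tsr1 at 2.12, Nob1, the nuclease of the last small subunit cut, at 1.92, and the RNA acetyltransferase Nat10 at 1.88. Of 40 other large subunit factors, 33 were higher, 3 lower and 4 not called, with a median of 0.71. Rrp15 at 2.45, Mrto4 at 1.91 and Ftsj3 at 1.80 led them. Of 13 other genes of the RNA polymerase I machinery, 10 were higher and 3 lower, with a median of 0.49. Taf1a and Taf1c, subunits of its selectivity factor, changed by 1.63 and 1.31, and Tcof1, a nucleolar cofactor of rRNA transcription, by 1.56. Taf1a rested on 25 to 40 estimated counts per control-CAR library. Of the other Taf1 genes, Taf1d stood higher in CAR than in control-CAR macrophages (22.9 against 11.3 mean FPKM). Taf1b stood lower (4.11 against 5.77 mean FPKM). Of 14 genes of the RNA exosome, the complex that trims and degrades RNA ends, 11 were higher, 1 lower and 2 not called, with a median of 0.70. Exosc6 changed by 2.76, Exosc2 by 2.46 and Dis3, its catalytic subunit, by 2.07.

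Against progenitor cells, where 39.7% of all tested genes were called lower in CAR macrophages and 45.9% higher, 3 of the 4 lists were mostly lower. The counts were 30 lower and 3 higher of 39 small subunit factors, 34 lower and 4 higher of 40 large subunit factors, and 11 lower and 3 higher of 14 exosome genes. For the RNA polymerase I machinery they were 6 lower, 1 higher and 6 not called of 13, with a median log2 change of -0.09. In Hoxb8 macrophages against progenitor cells, 36 of 39, 35 of 40, 12 of 14 and 10 of 13 genes of the same lists were lower, where 39.6% of all tested genes were called lower.

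The MYC network was described by its mRNA levels alone, and its part in the members' changes was not tested. Myc stood at 183.1, 184.5 and 194.7 FPKM in progenitor cells and 17.1, 17.8 and 18.5 FPKM in CAR macrophages. It stood at 18.5, 19.4 and 19.98 FPKM in BMDM, 15.3, 14.9 and 17.2 FPKM in Hoxb8 macrophages, and 17.8, 15.8 and 15.3 FPKM in control-CAR macrophages. Progenitor libraries lay far above all others, and CAR libraries overlapped both control-CAR and BMDM libraries. The log2 change of Myc was -2.91 (SE 0.06) in CAR macrophages against progenitor cells and -2.73 (SE 0.06) in Hoxb8 macrophages against progenitor cells. In CAR over control-CAR macrophages it was -0.17 (SE 0.06, adjusted p = 0.0168, edgeR's quasi-likelihood test). The call was lost without CAR replicate 1 or control-CAR replicate 1. The direction depended on the scaling, with 0.13 for library totals, 0.12 for log2(FPKM + 1) and 0.35 for TPM.

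Mxi1, a MAX partner that represses MYC targets, ran the other way from the members. It stood at 31.4, 29.0 and 31.1 FPKM in progenitor cells and 43.6, 46.7 and 47.8 FPKM in CAR macrophages. It stood at 111.5, 117.7 and 104.6 FPKM in BMDM, 219.0, 192.3 and 209.6 FPKM in Hoxb8 macrophages, and 195.7, 194.5 and 204.9 FPKM in control-CAR macrophages. The order of the group means was thus the reverse of that of the members' summed share for the first 3 groups, and the Hoxb8 and control-CAR libraries overlapped. The log2 change of Mxi1 was -2.45 (SE 0.07) in CAR over control-CAR macrophages, 1.11 (SE 0.07) in CAR macrophages against progenitor cells and 3.65 in Hoxb8 macrophages against progenitor cells.

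Mxd1, another repressor of the network, had a mean of 11.5 FPKM in progenitor cells and 73.0 to 91.3 FPKM in the 4 macrophage groups. Mxd4 had 44.6 FPKM in progenitor cells, 9.90 FPKM in CAR and 16.7 FPKM in control-CAR macrophages. Max, the shared partner, had 70.8 FPKM in progenitor cells, 37.3 FPKM in CAR and 34.1 FPKM in control-CAR macrophages. Of the 10 tested genes of the list, 9 were called lower in CAR than control-CAR macrophages, and 1, Mxd3, was higher, where 36.8% of all tested genes were called lower and 41.9% higher. Mxd3 stood at 4.82, 4.39 and 5.7 FPKM in CAR macrophages and at 0.06, 0.11 and 0 FPKM in control-CAR macrophages, with at most 2 estimated counts per control-CAR library, so no fold is given. For the lower genes beside Myc and Mxi1, the log2 changes were -1.05 for Mxd4, -0.80 for Mlxip, -0.56 for Mlx, -0.45 for Mxd1, -0.40 for Mnt, -0.24 for Mga and -0.16 for Max. Those of Max and Mga turned positive with library totals, FPKM and TPM values, and those of Mxd1 and Mnt with TPM, while those of Mxi1, Mxd4, Mlxip and Mlx were negative under each scaling run. The call of Mga was lost without control-CAR replicate 1, and that of Max without any 1 library other than control-CAR replicate 2.

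**Figure D5:**
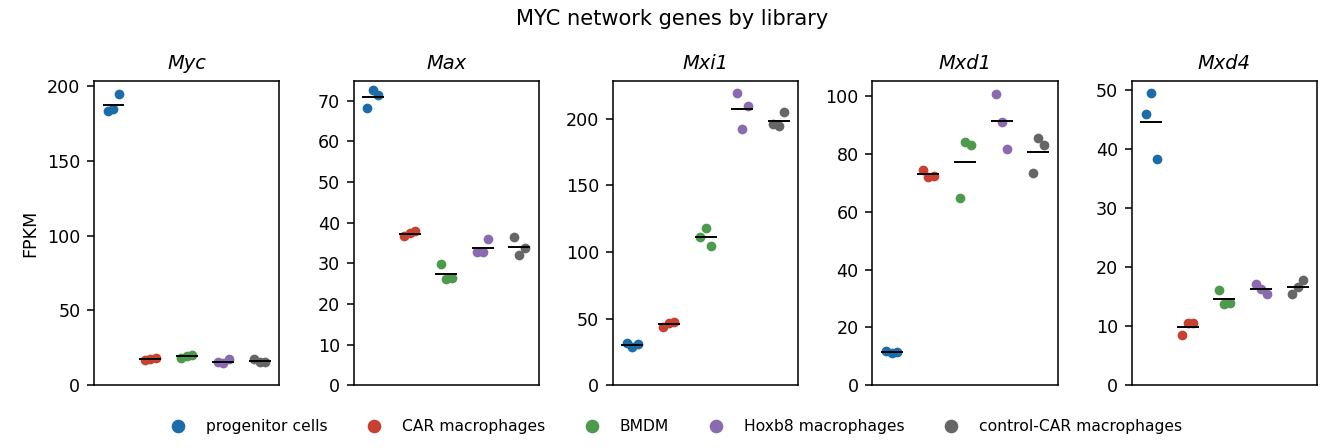
FPKM of Myc, Max, Mxi1, Mxd1 and Mxd4, with a point per library, a line at each group's mean and the 5 groups side by side. Myc is highest in progenitor cells (183.1 to 194.7 FPKM), and Mxi1 runs from 29.0 to 31.4 FPKM there to 192.3 to 219.0 FPKM in Hoxb8 macrophages.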

How the data were processed

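Bulk RNA-seq of 15 libraries was read from 1 table of 17030 genes. Tools named in the submitters' processing notes, with no step assigned, were RSEM 1.3.1, DESeq2 1.4.5, Bowtie2 and HISAT2, and the build was GRCm38.p6. The authors deposited estimated counts per gene, not normalised, per the file headers. The authors also deposited FPKM and TPM values for each library, per the file headers. A further 15 columns of averages were not used. Date-like symbols of 25 genes were restored through their gene IDs, of which 16978 matched RefSeq.

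Counts were rounded, and genes at an FPKM of at least 1 in at least 3 libraries were tested, which kept 11793 and left out 5237. All 15 libraries entered 1 edgeR 4.0.16 quasi-likelihood fit (R 4.3.3, TMM scaling, group means, 10 residual degrees of freedom, two-sided, Benjamini-Hochberg over all tested genes, called under 0.05). The fit was also run on simulated counts with few genes altered between the groups compared, equally up and down. That run cannot test the scaling, because far more genes were called in most comparisons of these data. TMM takes most genes as unaltered, and its factors ran from 0.824 to 1.47, the highest in progenitor cells, so that FPKM ratios and modelled changes differ. Alternatives were other scalings, DESeq2 1.42.0, limma 3.58.1 on log2 values (pseudocounts 1 and 0.1), other filters, the 6 libraries alone, a replicate block and leaving out each library. Replicate pairs differed beyond sampling noise (chi-square per degree of freedom 1.40 to 21.3), and unequally by group. The values were 1.40 to 2.01 in CAR, 2.05 to 3.45 in progenitor, 4.82 to 8.44 in Hoxb8, 2.96 to 15.3 in control-CAR and 6.63 to 21.3 in BMDM libraries. The fit shares its spread over all groups, so standard errors may be too small for groups that spread more. Members, lists, comparisons and the rule for named genes (the most abundant of each role, the largest changes and exceptions) were chosen with earlier results of these data known. Figures used matplotlib 3.10.9.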

Additional observations from a re-analysis of the deposited data

How the results depend on the processing

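The counts of members in CAR macrophages against BMDM and in Hoxb8 macrophages and BMDM against progenitor cells were 38 of 38 under each alternative run. In CAR against control-CAR macrophages, 36 or 37 were higher under each (Polr1e was not called with quantile normalisation); without any 1 library the counts stayed at 37 higher and 1 lower. With TPM, 0 were lower (Ddx10 0.0087). For CAR macrophages against progenitor cells, 31 to 38 were lower, and 30 to 35 without 1 library. In Hoxb8 macrophages against BMDM, 1 was higher with library totals, with either FPKM pseudocount and with TPM, 11 with quantile normalisation, and 2 to 6 without 1 library. There, 32 were lower with TPM and 17 to 21 without 1 library. In control-CAR against Hoxb8 macrophages, the count higher was 6 with library totals, 2 with DESeq2, 5 with log2(FPKM + 1), 3 with log2(FPKM + 0.1), 5 with TPM, 0 with only the 6 libraries, and 0 to 2 without 1 library. Over all tested genes, that comparison called 85 higher and 224 lower, and 278 higher with library totals.

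Scaling moved the median of all genes. In CAR against control-CAR macrophages it shifted by 0.31 with library totals, 0.23 with log2(FPKM + 1), 0.45 with TPM and -0.16 with quantile normalisation, and the calls of all genes went from 41.9% higher and 36.8% lower to 57.0% and 23.5% with library totals and 67.9% and 16.4% with TPM. Against progenitor cells the shift with library totals was -0.48 for CAR, -0.74 for Hoxb8 macrophages and -0.64 for BMDM. The median of the 38 moved with it and was 1.80, -1.09, -3.25 and -2.92 in these comparisons.

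Signs turned for single genes, in the order library totals, log2(FPKM + 1), log2(FPKM + 0.1) and TPM. In CAR against control-CAR macrophages they were 0.13, 0.12, 0.13 and 0.35 for Myc, 0.15, 0.13, 0.13 and 0.37 for Max, and 0.064, 0.064, 0.073 and 0.28 for Mga. With TPM alone, Mxd1 was at 0.096 and Mnt at 0.14. Against progenitor cells, Nop14 was at -0.44, -0.42, -0.43 and -0.47. In Hoxb8 macrophages against BMDM, TPM gave Polr1a -0.26, Nop10 -0.025, Utp15 -0.22, Nop14 -0.18, Pes1 -0.29 and Noc2l -0.051, and library totals gave Pes1 -0.13. Quantile normalisation gave Polr1b 0.11, Polr1e 0.31, Utp20 0.48 and Noc3l 0.29.

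The share of counts (BMDM, CAR, Hoxb8, control-CAR, progenitor) was 0.0875%, 0.288%, 0.0593%, 0.0631% and 0.688% of summed TPM. It was 0.130%, 0.428%, 0.103%, 0.112% and 0.914% without the 10 most abundant genes, and 0.0755%, 0.25%, 0.05996%, 0.0681% and 0.577% without Ncl and Npm1. Leaving out 1 library gave 0.113% to 0.119%, 0.390% to 0.393%, 0.0885% to 0.0914%, 0.0947% to 0.101% and 0.875% to 0.882%.

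Same-numbered libraries did not deviate together (correlations -0.144 to 0.0312, against up to 0.183 for unlike numbers). With 3 libraries a group, these values show no pairing by number but cannot exclude it. With the replicate block, 37 members were higher and 1 lower in CAR against control-CAR macrophages, and 31 were lower against progenitor cells, where Polr1a lost its call. Calls were gained without 1 library for Imp4, Nip7, Noc3l and Pno1 in CAR macrophages against progenitor cells. They were also gained for Imp3, Nop14, Noc3l, Polr1a, Polr1e, Ppan and Rrp12 in Hoxb8 macrophages against BMDM and for Nop58 in control-CAR against Hoxb8 macrophages. The causes of these moves were not tested. Low counts limit Dkc1, Gar1 and Taf1a, among other genes, in Hoxb8 and control-CAR macrophages.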
